A study of Vitis vinifera with 7 samples.

Results

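The probes described here lost most of their signal when grape berries began to ripen and were still near that lower level in ripe fruit. They were chosen on the deposited log2 values. The highest of the 3 veraison arrays had to lie at least 4 below the lowest of the 3 green arrays, a 16-fold gap, and the ripe array had to lie less than 1 from the veraison mean. Of 28811 probes, 147 (0.51%) met both conditions. The same values that chose the probes are given below, so levels and differences between stages are a description and support nothing by themselves.

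The samples were berry tissue of Sauvignon blanc, a white-fruited cultivar of Vitis vinifera, at green (EL-31), veraison (EL-34) and ripe (EL-38) stages of the Eichhorn-Lorenz scale of vine growth. No treatment or genotype differed between them. Total RNA was labelled with Cy3 and hybridised to 1-colour NimbleGen arrays, 3 for green berries, 3 for veraison and 1 for ripe berries. The tissue of a stage was ground and pooled, and the arrays of a stage are separate RNA extractions from that pool. Their spread covers extraction, labelling and hybridisation, and not vines or berries.

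A grape berry grows in a first phase in which cells divide and enlarge, chloroplasts are active, and tannins and malic acid build up. At veraison the berry softens, chlorophyll is lost and sugar begins to accumulate, and in white cultivars no red pigment forms. Genes of the green phase are widely known to be turned down at this point. No identifier of the array was found among the identifiers of the RefSeq gene table used for names. The probes are therefore reported by identifier, without gene, role, position or sequence, and the labelled tissue could not be checked against marker genes. Fewer cells of a type and less RNA per cell cannot be told apart in such samples.

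Across the whole table the array medians lay between 9.17 and 9.22 log2, and all values between 4.06 and 15.99. Within veraison, extraction 2 stood apart. The SD over probes of its log2 difference was 0.596 against extraction 1 and 0.529 against extraction 3, whereas extractions 1 and 3 differed by 0.204. Green extraction 3 differed from 1 and 2 by an SD of 0.333 and 0.345, against 0.224 between 1 and 2. The main counts are also given without each of these 2 arrays.

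As a set, the 147 probes had a median log2 signal of 11.90, 11.92 and 11.84 in the green extractions, 6.28, 6.36 and 6.23 in those of veraison and 6.05 in ripe berries. The median of all probes stayed near 9.2 throughout. The 147 thus lay above the typical probe in green berries and close to the 25th percentile of the table, 6.20 to 6.23, on the later arrays. In the veraison mean they covered 4.93 to 10.25, and in the green mean 9.53 to 14.88.

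**Figure D1:**
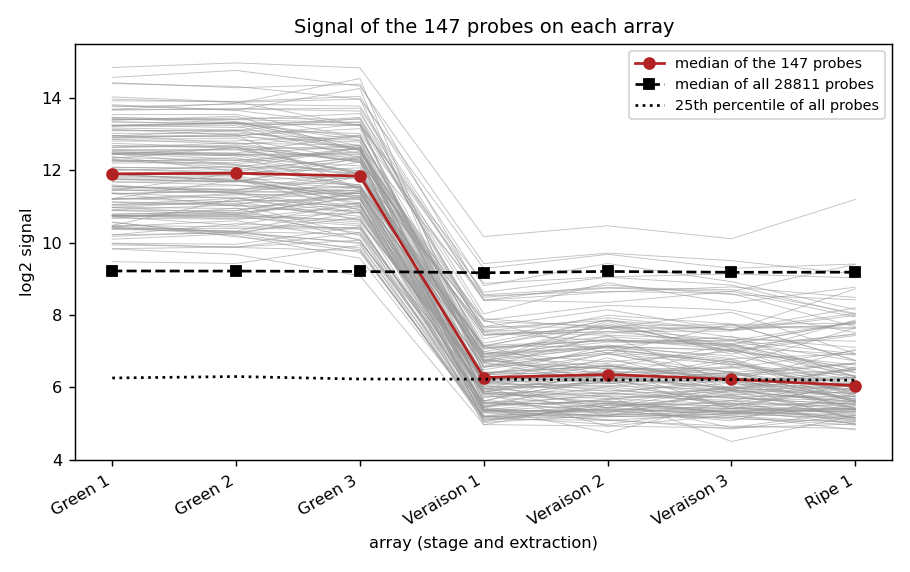
Log2 signal (vertical axis) of each of the 147 probes on the 7 arrays (horizontal axis), as grey lines, with the median of the 147 in red and the median and 25th percentile of all 28811 probes in black. The red median is 11.84 to 11.92 in green berries, 6.23 to 6.36 at veraison and 6.05 in ripe berries, while the black median stays near 9.2.

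The veraison minus green difference of the 147 had a median of -5.23 log2, against 0.08 for all probes, and lay between -7.73 and -4.25. The median was -5.27 without green extraction 3 and -5.21 without veraison extraction 2. In linear terms the signal at veraison was 19.1 to 212 times lower, with a median of 37.4. It was at least 32-fold lower in 87 probes, at least 64-fold in 32 and at least 128-fold in 8. The standard errors of these differences had a median of 0.17 and reached 0.42. In limma, with Benjamini-Hochberg adjustment over the whole table and a limit of 0.05, all 147 were called lower at veraison, as were 21.7% of all probes. In ripe against green berries all 147 were called lower as well, as were 22.4% of all probes. The rule used these contrasts, so nothing is read from the counts. In the whole table the veraison arrays lay below every green array, without overlap, in 26% of probes.

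The widest gap was that of VitusP00074522. Its log2 signal was 13.68, 13.85 and 14.53 in green berries, 6.36, 6.44 and 6.39 at veraison and 5.67 in ripe berries. The veraison arrays lay within 0.1 of each other, and the ripe array was below all of them. The difference between veraison and green was -7.63 (SE 0.22, limma adjusted p 8.2e-07).

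VitusP00243202 had the largest difference of means among the 147. It gave 13.81, 13.65 and 13.24 in green berries, 6.02, 5.98 and 5.51 at veraison and 5.35 in ripe berries, a veraison minus green difference of -7.73 (SE 0.20, limma adjusted p 5.7e-07). Green extraction 3 and veraison extraction 3 were each the lowest of their stage here. VitusP00004911 gave 13.02, 13.02 and 12.82 in green berries, 5.44, 4.75 and 5.64 at veraison and 4.98 in ripe berries. Its low value in veraison extraction 2 made the SD at veraison 0.46, and the ripe value fell inside the veraison range.

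VitusP00290090 was level after the drop. It had 12.96, 12.74 and 12.70 in green berries, 5.20, 5.57 and 5.31 at veraison and 5.26 in ripe berries, a ripe minus veraison difference of -0.10. VitusP00033574 ended higher. Its green signal was 14.39, 14.31 and 13.97, its veraison signal 6.85, 7.17 and 6.80 and its ripe signal 6.93, so it kept the same shape at a higher level.

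VitusP00002940 had 13.78, 13.66 and 14.26 in green berries, 6.16, 6.94 and 6.26 at veraison and 6.17 in ripe berries, with veraison extraction 2 as the high array. VitusP00275076 had 13.40, 13.40 and 13.31 in green berries, 6.11, 6.61 and 6.20 at veraison and 5.69 in ripe berries. Extraction 2 was again highest, and the ripe array was below all veraison arrays.

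VitusP00013929 had 12.53, 12.56 and 12.68 in green berries, 5.83, 5.77 and 5.64 at veraison and 6.12 in ripe berries, the only one of the 12 widest gaps with a ripe value above every veraison array. VitusP00170974 had 12.07, 12.07 and 12.61 in green berries, 5.39, 5.09 and 5.29 at veraison and 5.35 in ripe berries. Here green extraction 3 was the bright array and the later arrays overlapped.

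VitusP00275046 had 13.33, 13.28 and 13.24 in green berries, 6.41, 6.59 and 6.26 at veraison and 5.44 in ripe berries, a ripe minus veraison difference of -0.98 that is just inside the limit. VitusP00113376 had 12.63, 12.75 and 12.21 in green berries, 5.60, 5.34 and 5.65 at veraison and 5.39 in ripe berries. VitusP00086295 had 12.26, 12.14 and 11.99 in green berries, 5.45, 5.20 and 5.25 at veraison and 5.17 in ripe berries. Green extraction 3 was the dimmest green array in both, while the later values stayed within the dimmest 25% of the table.

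**Figure D2:**
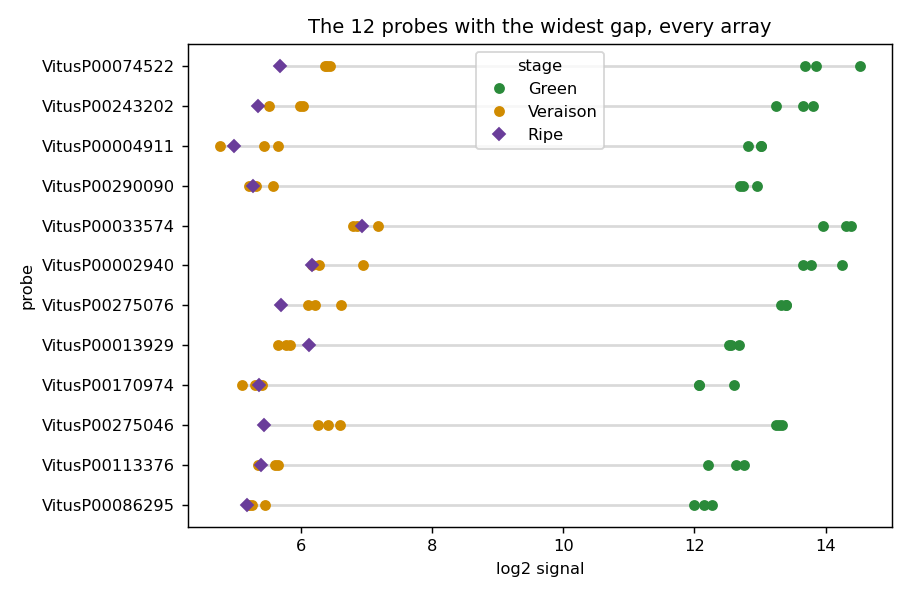
Log2 signal (horizontal axis) on every array for the 12 probes with the widest gap (rows), green arrays as green circles, veraison arrays as orange circles and the ripe array as a purple diamond. The green arrays lie at 11.99 or above and all later arrays at 7.17 or below, and the ripe diamond sits above every veraison circle in VitusP00013929 only.

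At the other end, the rule cut through a continuous range. The narrowest gaps inside it were 4.01 for VitusP00097576, 4.01 for VitusP00093768 and 4.0 for VitusP00095784. The widest gaps just outside it, among probes that met the ripe condition, were 3.97 for VitusP00024427, 3.96 for VitusP00262286 and 3.96 for VitusP00088085. VitusP00095784 had 11.36, 11.41 and 11.35 in green berries, 6.85, 7.35 and 7.04 at veraison and 6.32 in ripe berries. VitusP00088085, left out, had 11.94, 11.83 and 12.04 in green berries, 7.80, 7.88 and 7.82 at veraison and 7.25 in ripe berries, so its veraison arrays were closer together than those of the probe that was kept. With a gap of at least 3, 304 probes would have been chosen, and with a gap of at least 5, 58.

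Many of these probes did not reach the bottom of the scale. The later level was set against the veraison means of all probes. Of the 147, 26 (17.7%) lay in the dimmest 10% at veraison (up to 5.40), 42 (28.6%) between there and the dimmest 25% (up to 6.21), 76 (51.7%) between there and the median (9.18), and 3 (2.04%) above the median. All veraison arrays and the ripe array were below their array's 25th percentile in 52 probes (35.4%), against 18.8% of the table. Without a background flag on these values, a low signal gives no statement that a transcript was absent.

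All veraison arrays and the ripe array were below their array's median in 142 of the 147 (96.6%), against 44.7% of the table. The word shut off describes the data least in 3 probes, whose veraison means were above the median of all probes. VitusP00014717 had 14.84, 14.96 and 14.83 in green berries, 10.17, 10.46 and 10.11 at veraison and 11.19 in ripe berries. VitusP00130118 had 14.56, 14.76 and 14.32 in green berries, 9.42, 9.71 and 9.50 at veraison and 9.13 in ripe berries. VitusP00026969 had 13.96, 13.88 and 13.96 in green berries, 9.29, 9.68 and 9.29 at veraison and 9.41 in ripe berries. Veraison extraction 2 was the highest of its stage in all of them. They dropped by 4.52 to 5.0 log2, a size also seen among the dim probes, but started near the top of the scale.

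The green level and the level reached went together. Over the 147 probes Pearson's r between the green mean and the veraison mean was 0.73, against 0.91 over all probes. It is a correlation across probes of the same arrays, and the limit of 4 on the gap shapes it. In the dimmest 10% at veraison the median green mean was 10.42, in the next group up to 25% it was 11.12, between 25% and the median 12.5, and in the 3 brightest 14.55. Grouped in this way, the veraison minus green difference had medians of -5.24, -5.35, -5.14 and -4.63. Set against the green mean instead, it had an r of -0.46 over the 147, against -0.21 over all probes. The green mean is itself subtracted in that difference, which pulls r towards negative values. The rule used the same arrays, so nothing is read from this r. The 3 probes brightest at veraison had the smallest median drop, but they were grouped by the veraison mean, which is part of that drop. Over the 147, r between the green and veraison means was 0.72 without green extraction 3 and 0.71 without veraison extraction 2.

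Green signals were not uniformly high either. All 3 green arrays were above their array's median in 146 of the 147, above the 75th percentile in 74 and above the 90th percentile in 21. The exception, VitusP00116584, singled out after its values were seen, had 9.82, 9.67 and 9.08 in green berries, 4.98, 4.94 and 4.88 at veraison and 4.99 in ripe berries.

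**Figure D3:**
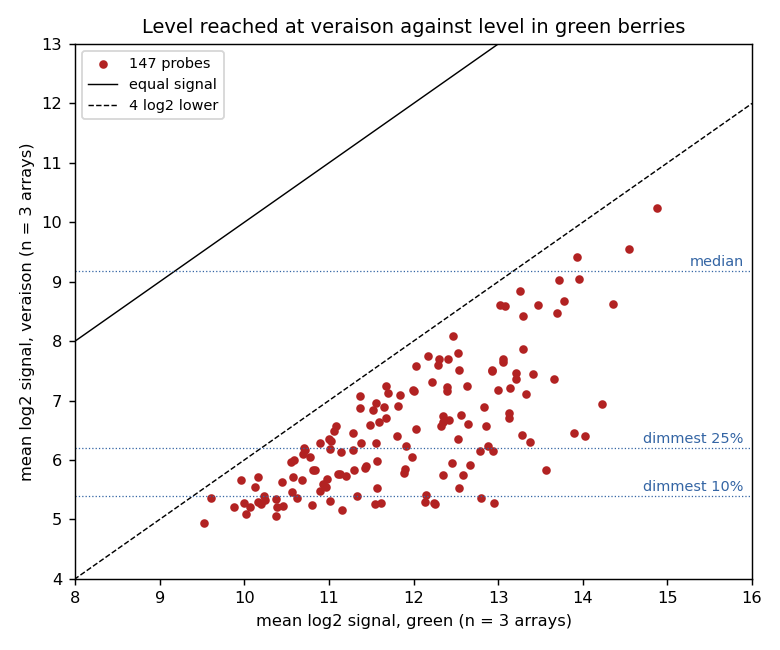
Mean log2 signal at veraison (vertical axis) against mean log2 signal in green berries (horizontal axis) for the 147 probes, with lines for equal signal and for 4 log2 lower, and dotted lines at the upper edge of the dimmest 10% (5.40), the dimmest 25% (6.21) and the median (9.18) of all probes at veraison. Points spread from below the line of the dimmest 10% up to 3 points above the median line.

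The ripe array tells how the level held after veraison, within the limit of 1 that the rule set. The ripe minus veraison difference of the 147 had a median of -0.13 log2, against 0.08 for all probes. It was under 0.1 in size in 29 probes, under 0.25 in 54 and under 0.5 in 87. The ripe array was below every veraison array in 70 probes (47.6%), above every one in 34 (23.1%) and within their range in 43 (29.3%). In the whole table these shares were 30.1%, 42.1% and 27.8%. Among the 3373 other probes called at least 2-fold lower at veraison they were 48.9%, 29.6% and 21.6%. These other probes carry no limit on the ripe array, so the shares are set side by side without a comparison. Without veraison extraction 2, which leaves a pair of veraison arrays to set the range, the ripe array was below in 75 of the 147, above in 46 and within in 26.

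At an adjusted p under 0.05, 24 of the 147 differed between ripe and veraison berries in limma, 18 lower and 6 higher, with the ripe array assumed to vary like the others. Among all probes 24.4% were called, 10% lower and 14.4% higher, and a limit on the size of this difference belongs to the rule. The count moved when single green or veraison arrays were left out, and so did the count over all probes. Both were highest without veraison extraction 2 and lowest without veraison extraction 3.

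The lowest ripe values against veraison were in VitusP00225868, VitusP00281919 and VitusP00078706. VitusP00225868 had 12.55, 12.46 and 12.66 in green berries, 6.59, 6.97 and 6.73 at veraison and 5.76 in ripe berries, a ripe minus veraison difference of -1.0 (SE 0.19, limma adjusted p 1.1e-02). VitusP00281919 had 13.22, 13.31 and 12.83 in green berries, 6.55, 7.03 and 6.76 at veraison and 5.79 in ripe berries. In both, the ripe array lay below every veraison array, and a slightly lower ripe value would have put them outside the rule. The nearest probe outside on that side, VitusP00223686, had a difference of -1.01.

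The highest ripe values against veraison were in VitusP00014717, given above, VitusP00248833 and VitusP00175968. VitusP00014717 regained 0.95 (SE 0.18, limma adjusted p 1.2e-02), the largest partial return among the 147. VitusP00248833 had 11.55, 11.45 and 11.96 in green berries, 6.93, 6.56 and 7.17 at veraison and 7.83 in ripe berries. VitusP00175968 had 12.62, 12.69 and 12.26 in green berries, 7.68, 8.15 and 7.58 at veraison and 8.72 in ripe berries. All of them remained at least 3.54 below their lowest green array, the smallest such distance among the 147, and the largest was 8.01. The nearest probe outside on that side, VitusP00100516, had a difference of 1.01.

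The same gap of at least 4 at veraison was seen in 212 probes, of which the 147 with a ripe value less than 1 from the veraison mean are 69.3%. Another 57 (26.9%) were at least 1 lower in ripe berries, and 8 (3.77%) were at least 1 higher. The 147 had a median veraison mean of 6.31 and a median green mean of 11.90, against 7.56 and 13.35 for the 57, which were thus brighter at both stages. Without green extraction 3 the gap was seen in 267 probes, of which 182 (68.2%) were within 1, and without veraison extraction 2 in 248, of which 166 (66.9%) were. In ripe berries the medians came close, at 6.05 for the 147 and 5.82 for the 57. The median veraison minus green difference was -5.23 for the 147 and -5.45 for the 57.

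The share of these 212 probes within 1 on the ripe array differed with the level at veraison. Of the 28 probes with this gap in the dimmest 10%, 26 (92.9%) were within 1 on the ripe array, of the 48 in the next group up to 25% there were 42 (87.5%), of the 124 between 25% and the median there were 76 (61.3%), and of the 12 above the median there were 3 (25%). Over all probes, whatever their history, the shares within 1 were 98.4%, 92.5%, 70.0% and 83.2% in the same order. The shares of probes with the gap were 94.4%, 87.9%, 57.6% and 21.4% without green extraction 3, and 92%, 88.9%, 56.9% and 31.2% without veraison extraction 2. Falls of at least 1 after veraison numbered 0, 4, 44 and 9. Within the 147 the median ripe minus veraison difference was -0.03 in the dimmest 10% and -0.04 in the next group, -0.48 between 25% and the median, and -0.01 in the 3 probes above the median. Without veraison extraction 2 these medians were 0.08, -0.11, -0.42 and 0.12. A signal near the bottom of the scale has little room for a further fall, and how far this bears on which probes were within 1 was not tested.

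**Figure D4:**
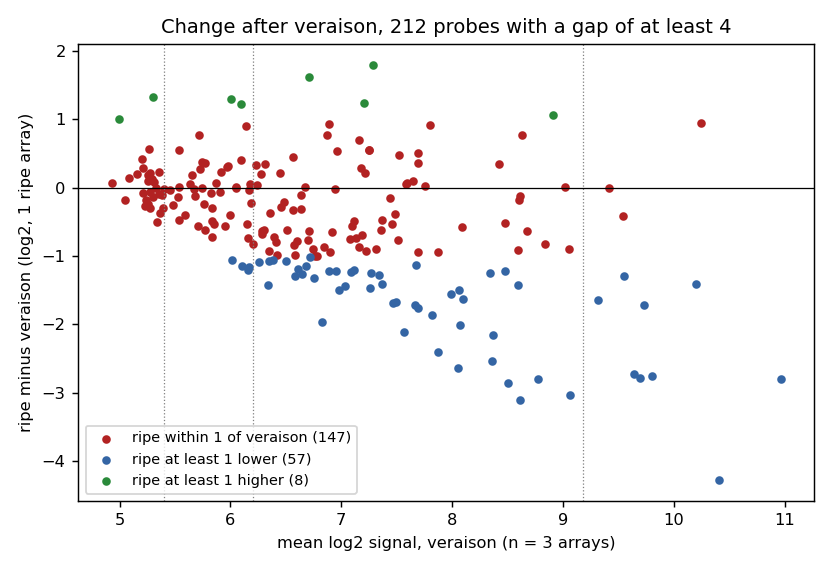
Ripe minus veraison difference in log2 (vertical axis) against the mean log2 signal at veraison (horizontal axis) for the 212 probes with a gap of at least 4, in red the 147 within 1, in blue the 57 at least 1 lower and in green the 8 at least 1 higher, with dotted lines at 5.40, 6.21 and 9.18 log2. No blue point lies left of the first dotted line, and larger falls appear towards the right.

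The arrays of a stage did not deviate alike among these probes. The median SD was 0.19 at veraison and 0.23 in green berries (n = 3 each), against 0.19 and 0.14 for all probes. Green extraction 3 was at least 0.5 below the mean of extractions 1 and 2 in 31 of the 147 (21.1%) and at least 0.5 above it in 11 (7.48%). Over all probes these shares were 6.12% and 2.67%, and among the other probes called at least 2-fold lower at veraison they were 20.9% and 4.09%. The rule reads the lowest green array, and these other falling probes carry no such limit. The shares are thus given side by side without a comparison.

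VitusP00151861, singled out after its values were seen for the largest green SD (0.92), had 13.13, 12.97 and 11.47 in green berries, 6.27, 6.58 and 6.21 at veraison and 5.42 in ripe berries. VitusP00181590 had 11.13, 11.07 and 10.20 in green berries, 5.23, 5.36 and 5.13 at veraison and 5.06 in ripe berries. In both, green extractions 1 and 2 lay close together and extraction 3 was the low one, still 4.89 and 4.84 above the highest veraison array.

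Veraison extraction 2 was the highest of its stage in 80 of the 147 (54.4%), close to its 54.7% in the table. It was at least 0.5 above the mean of extractions 1 and 3 in 21 (14.3%) and at least 0.5 below it in 8 (5.44%). Over all probes the shares were 12.4% and 12%, and among the other falling probes 16.6% and 13.3%. The rule reads the veraison arrays, so these shares depend on it, and their cause was not tested.

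The largest SD at veraison, 0.68, was that of VitusP00044923. It had 13.46, 13.35 and 12.58 in green berries, 6.56, 7.44 and 6.10 at veraison and 5.93 in ripe berries, with extraction 2 high. VitusP00068407 had 9.83, 9.88 and 10.28 in green berries, 5.56, 5.77 and 4.51 at veraison and 5.22 in ripe berries, with extraction 3 low. VitusP00221293 had 12.26, 12.27 and 12.51 in green berries, 6.83, 7.13 and 5.95 at veraison and 6.53 in ripe berries, again with extraction 3 low. The odd array was thus not the same one in each, and the stages stayed at least 4.07 apart.

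The rule was also applied without 1 array, and the array left out was then read. Without green extraction 3, 182 probes were chosen, all of the 147 and 35 more. Leaving out an array can only widen the gap, and the ripe condition does not read green arrays, so the 147 were bound to stay. Extraction 3 itself lay above the veraison arrays in all 182 and by at least 4 in 147 (80.8%), with a smallest distance of 2.56. By the rule, those 147 are the original probes again. Without veraison extraction 2, 166 were chosen, of which 138 were among the 147. Extraction 2 lay below the green arrays in all 166 and by at least 4 in 139 (83.7%), with a smallest distance of 3.27. For the other 4 arrays 144 to 155 probes were chosen, and the array left out kept the gap in 96.8% to 98.7%. Without green extraction 1 or 2, the probes that kept it were, by the rule, the original 147 once more. The array left out came from the same pool each time, so these values speak for the extraction and the array only.

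A property that the rule did not use was the number in the identifier. Places next to one of the 147 in identifier order numbered 294, each counted once per adjoining probe, so an adjacent pair is counted from both sides. Distinct neighbours numbered 290, and 13 of them were among the 147. Of the 294 places, 14 (4.76%) held another of the 147, against 0.51% of the table. The share was 6.04% for the 182 probes chosen without green extraction 3 and 5.42% for the 166 chosen without veraison extraction 2. Of the neighbours that were not among the 147, 22.5% were at least 2-fold lower at veraison, against 12.6% of the table. Within 5 places on either side, 25 of the 147 (17.0%) had another one of them. What the order of the identifiers stands for is not given in the sources used here, and whether neighbouring probes share sequence was not tested. Over the whole table, consecutive probes had a Pearson's r of 0.14 in the veraison minus green difference.

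There were 3 runs of 3 such probes, singled out after their values were seen. The first comprises VitusP00068407, given above, VitusP00068421 and VitusP00068431. VitusP00068421 had 9.99, 9.95 and 10.44 in green berries, 5.57, 5.55 and 5.49 at veraison and 6.08 in ripe berries. VitusP00068431 had 10.79, 10.83 and 11.07 in green berries, 5.52, 5.63 and 5.30 at veraison and 5.23 in ripe berries. Green extraction 3 was the highest green array in all 3, while the ripe array was above every veraison array in VitusP00068421 only.

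The second run comprises VitusP00078706, VitusP00078725 and VitusP00078732. VitusP00078706 had 11.50, 11.57 and 11.36 in green berries, 6.87, 6.15 and 6.72 at veraison and 5.60 in ripe berries. VitusP00078725 had 10.74, 10.81 and 10.57 in green berries, 6.28, 6.18 and 6.15 at veraison and 5.38 in ripe berries. VitusP00078732 had 10.21, 10.52 and 10.38 in green berries, 5.84, 4.93 and 5.24 at veraison and 4.83 in ripe berries. The ripe array was the lowest of all in each, with ripe minus veraison differences of -0.98, -0.82 and -0.51.

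The last run comprises VitusP00165562, VitusP00165582 and VitusP00165593. VitusP00165562 had 11.76, 11.70 and 11.24 in green berries, 5.51, 5.62 and 5.47 at veraison and 5.06 in ripe berries. VitusP00165582 had 12.90, 12.99 and 12.47 in green berries, 6.07, 6.11 and 6.29 at veraison and 5.42 in ripe berries. VitusP00165593 had 10.91, 11.04 and 10.73 in green berries, 6.34, 6.63 and 5.90 at veraison and 5.61 in ripe berries. Green extraction 3 was the lowest green array in all 3, and the ripe array was below every veraison array in all 3.

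**Figure D5:**
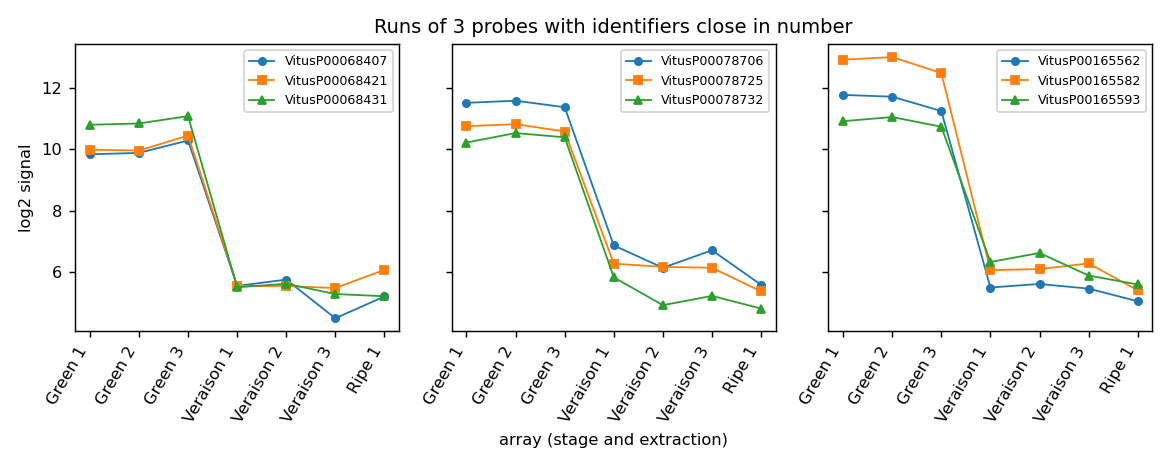
Log2 signal (vertical axis) on the 7 arrays (horizontal axis) for the 3 runs of 3 probes with identifiers close in number, 1 panel for each run and 1 line for each probe. Green extraction 3 is the highest green array for every probe of the first panel and the lowest for every probe of the last, and the ripe array is the lowest for every probe of the middle and last panels.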

How the data were processed

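The authors deposited log2 signals, 1 for each of 28811 probes on 7 arrays. RMA is named in the submitters' processing notes, with no version or settings. The log base was read from the range of the values. All 7 columns were matched to samples, and the deposited scaling was kept. Depth has no meaning for arrays, and their number limits the precision.

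Stage differences came from limma 3.58.1 (lmFit and eBayes, R 4.3.3), fitted to all 7 arrays with stage as sole factor, and p-values were adjusted by Benjamini-Hochberg over the whole table. The fit was also run on simulated data with independent normal errors, for veraison against green only. Those data held no deviating extraction, and the ripe contrasts were not tested in them, so nothing is read from that run. Probes, lists and the naming rule were chosen with earlier results of these data known. The naming rule took the 12 widest gaps, the 3 probes nearest each side of the limit of 4, and the 3 most extreme in veraison level, ripe minus veraison difference and veraison SD. The 16 planned lists of gene functions could not be used, because 0 identifiers matched RefSeq's gene table. The alternatives were other scalings, an added 50 on the linear scale, another variance, a replicate block, removal of the dimmest 25% of probes, other limits in the rule, and each green or veraison array left out.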

Additional observations from a re-analysis of the deposited data

How the results depend on the processing

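The number of probes chosen, 147, was 138 after quantile normalization, 146 after scaling to the 75th percentile and 114 with 50 added to the linear signal, and 138, 143 and 88 of these were among the 147. It was 304 with a gap of at least 3, 58 with a gap of at least 5, 87 with the ripe array within 0.5 and 185 within 1.5, and 144 to 182 with single arrays left out. In limma, all 147 stayed called lower at veraison under the other scalings, the added 50 and the other variance. They also did so with the replicate block and with each array left out. The rule used this contrast, so nothing is read from these calls. That removal of the dimmest 25% of probes left all 147 called lower was added after seeing the data. It took out none of the 147, not even those in the dimmest 25% at veraison, so it tested nothing about dim signals. The splits, shares and correlations given in the text without green extraction 3 or veraison extraction 2 were likewise chosen after seeing the data. The median veraison minus green difference of the 147, -5.23, was -4.55 with 50 added, which compresses dim signals by construction. The count of the 147 called between ripe and veraison, 24, was 4 with the replicate block and 8 to 44 with single arrays left out. This count, with all its alternatives, was added after seeing the data. Over all probes the ripe against veraison count of 7039 was 3468 with the replicate block and 4412 to 12989 with single arrays left out. For these counts the cause was not tested. The main fit did not pair the arrays by replicate number. The deviations of green and veraison extractions 1, 2 and 3 from their stage means correlated at -0.21, -0.12 and 0.05. The deviations within a stage depend on each other, so these values are not independent, and a shared batch was not tested. Signals near the bottom of the scale limit what can be read as a fall or as its absence.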
